A study of Vitis amurensis with 6 samples.

Results

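The genes described here are those of the grape gene models whose longest intron exceeds 10 kb. Intron lengths are those of the models, whose source genome is not named, and were not measured in the callus sequenced here. In each model the exons were sorted by position, and the gap from the last base of an exon to the first base of the next was taken, which is the intron's length plus 1 base. A gene on one of the 19 numbered chromosomes was taken where its longest gap was over 10000 bases. This gave 1015 long-intron genes among the 16645 genes of the table, or 6.65% of those on numbered chromosomes. They were compared with the 14241 genes on the same chromosomes whose introns are all shorter or that have none, called shorter-intron genes here. Another 78 genes with such a gap lie on random or Un sequences and were left out by the rule.

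RNA sequencing was done on callus, a mass of unorganised plant cells kept in culture, of Vitis amurensis, the cold-hardy Amur grape. There were 3 libraries of callus overexpressing VaWRKY12, one of the WRKY transcription factors of plants, and 3 libraries of EV callus, whose genotype label reads Envelope. All 6 libraries came from transgenic callus that was raised from petiole segments, selected on 20 mg per litre kanamycin and grown in the dark at 25 °C on B5 medium. All were held at 4 °C for 24 hours, 15 days after transfer to new medium, so the single comparison is between genotypes in the cold, which the series set up to find what lies downstream of VaWRKY12. The sources used here do not give the promoter driving VaWRKY12, the number of callus lines or the culture behind each library. P-values therefore measure the spread between these libraries, which may be technical. The file pairs gene identifiers with no names, so the row of VaWRKY12 was not identified and its overexpression was not checked.

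Introns are removed from the primary transcript by the spliceosome, and RNA polymerase must first copy them in full. Plant introns are mostly short. Long ones in grape often hold transposable elements, whose chromatin marks can lie inside an active gene. In Arabidopsis the proteins IBM2 and EDM2 are needed for full-length transcripts across introns of that kind. The grape genes for these proteins were not matched, for lack of names.

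The long introns lay in large, many-exon genes. The median longest gap was 13853 bases, with quartiles of 11547 and 17959 bases, and the range was 10006 to 39831. A long-intron gene spanned a median of 27.1 kb, against 3.99 kb for a shorter-intron gene, and had a median of 10 exons against 5. Its coding length, the sum of its exons in the table, had a median of 1548 bases against 1068. The longest intron alone made up a median of 53% of the span, while coding sequence made up 5.23% of it, against 28.1% in shorter-intron genes. The span and these shares follow in part from the rule, since every long-intron gene must span over 10 kb. Exon number and coding length were not set by the rule directly. A gene with more introns has more chances to hold a long one, so the rule may favour both. In all, the 1015 genes covered 35.4 Mb and held 2.09 Mb of coding sequence.

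**Figure D1:**
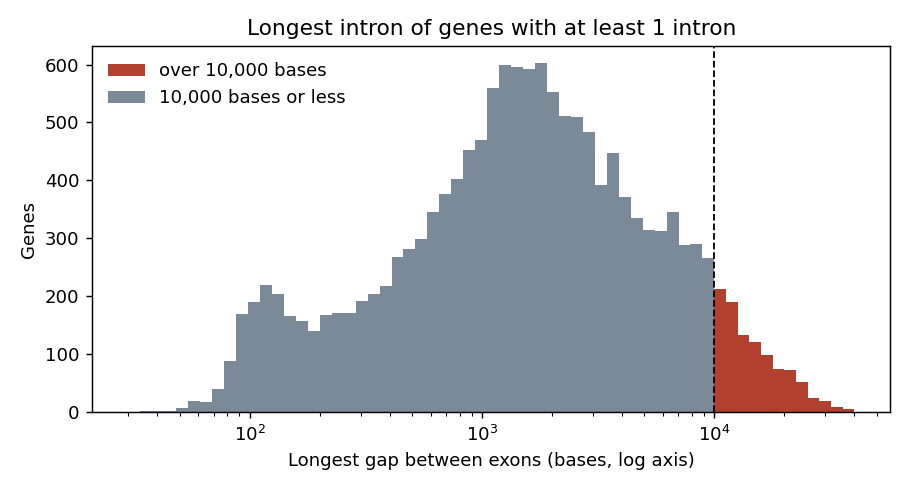
Histogram of the longest gap between exons, in bases on a log axis, for genes on numbered chromosomes with at least 1 intron, with the number of genes on the vertical axis and the threshold of 10000 bases as a dashed line. The long-intron genes form the upper tail of a continuous distribution, and no dip separates them from the rest at the threshold.

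Of the 1015 genes, 224 had 2 or more introns over 10 kb and 75 had 3 or more, up to 6 in a gene, and together they held 1358 such introns. Among the 990 genes with 2 or more introns, the longest was the first in transcription order in 18.2%, against 14.6% if it fell on each intron of a gene alike. It was the last in 11.4%. Order was counted over the listed exons, taken as coding, so an intron in an untranslated end of the transcript would be missed. For shorter-intron genes with 2 or more introns the share with the longest in the first place was 29.6%, against 23.3% by even placement. A median of 44.1% of the coding sequence lay before the long intron. The long intron was in phase 0, between codons, in 55% of long-intron genes, in phase 1 in 21.2% and in phase 2 in 23.8%. The longest intron of shorter-intron genes was in phase 0 in 49.6%, in phase 1 in 26.6% and in phase 2 in 23.7%. The exons flanking the longest intron had a median of 115 bases before and 114 after in long-intron genes, against 131 and 144 in shorter-intron genes. These lengths were not matched on exon number or compared with the other exons of the same genes. No other gene of the table lay inside a long intron, and no gene on a numbered chromosome had another listed gene within its span, so whether such nested genes are left out of the annotation or of the table was not tested.

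The largest gaps show the range of these structures and of their levels. GSVIVT01033203001 had the longest, in its intron 8 of 14, from 9606955 to 9646784 within a gene on chromosome 4 (plus strand) from 9601201 to 9680193. Coordinates are as the file gives them, without a named genome build. It stood at 20.9, 24.4 and 22.1 RPKM (reads per kilobase of coding length, scaled to library size) in VaWRKY12 libraries 1 to 3, and 16.3, 19.4 and 17.8 RPKM in EV libraries 1 to 3. The groups did not overlap, and the difference did not pass the test (log2 fold change 0.31, SE 0.105, edgeR adjusted p = 0.102). GSVIVT01029407001, on chromosome 17 (minus strand) from 16525112 to 16681587, had gaps of 39053 and 38167 bases and 5 introns over 10 kb. Its level was 10.2, 10.4 and 8.72 RPKM in VaWRKY12 and 8.68, 8.34 and 7.28 RPKM in EV (log2 fold change 0.24, SE 0.123, edgeR adjusted p = 0.263). The other genes with the longest introns were GSVIVT01020720001 on chromosome 12 (37831 bases), GSVIVT01031444001 on chromosome 6 (37693 bases) and GSVIVT01010721001 on chromosome 13 (37502 bases), which averaged 19.4, 27.9 and 124.2 RPKM over the 6 libraries. None of the 5 passed the test. In GSVIVT01020720001 and GSVIVT01010721001 the long intron followed the first exon, with 103 and 79 coding bases before it.

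The 2 genes with the most introns over 10 kb averaged 12.2 and 15.5 RPKM over the 6 libraries. GSVIVT01020995001, 27 exons over 150.7 kb on chromosome 5 (plus strand) from 15690674 to 15841389, had 6 introns over 10 kb. It had 32.0, 34.9 and 34.2 CPM (reads scaled to library size, with TMM, the trimmed mean of M-values) in VaWRKY12 libraries and 46.3, 46.1 and 41.5 CPM in EV libraries. Every VaWRKY12 library lay below every EV library, and the gene fell by 0.41 on the log2 scale (SE 0.0938, edgeR adjusted p = 0.0283). Its adjusted p rose to at most 0.102 when VaWRKY12 replicate 1 or 2 or EV replicate 1 or 2 was left out, and it was then not called. GSVIVT01018506001 on chromosome 16, also with 27 exons and 6 such introns, stood at 17.8, 17.1 and 14.8 RPKM in VaWRKY12 and 10.8, 16.2 and 16.1 RPKM in EV. Its groups overlapped (log2 fold change 0.18, SE 0.153, edgeR adjusted p = 0.504).

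At the threshold itself the genes differed by a few bases. Just above it were GSVIVT01033025001 (10006 bases), GSVIVT01022038001 (10007) and GSVIVT01025248001 (10012), at mean levels of 23.1, 4.69 and 4.56 RPKM. Just below it were GSVIVT01013086001 (9996 bases), GSVIVT01020576001 (9986) and GSVIVT01008033001 (9983), at mean levels of 177.6, 105.0 and 82.6 RPKM. These few genes do not stand for a drop in level at the threshold. The median was 27.2 RPKM over the 1746 tested genes of 5 to 10 kb and 22.0 RPKM over the 593 of 10 to 15 kb.

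The 6 libraries held 8795632 to 14966502 reads over all listed genes, and the long-intron genes took 5.57% to 6.02% of them in each library (Wilson 95% intervals no wider than 0.0314 percentage points, for counting error only). Replicate libraries correlated across genes at 0.973 to 0.987 in VaWRKY12 and at 0.980 to 0.986 in EV (log2 CPM). VaWRKY12 replicate 3 stood apart, at 0.973 and 0.974 against VaWRKY12 replicates 1 and 2, which correlated at 0.987. Every pair of replicates differed by more than counting error, with a chi-square of 6.27 to 22.6 for each degree of freedom. Fractions of reads, whose origin was not tested, occurred in 48.2% of long-intron genes and 37% of shorter-intron genes.

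Long-intron genes were expressed at levels near those of other genes, with fewer at the top of the range. After a filter on low counts that 1004 of the 1015 passed, their median over the 6 libraries was 21.6 RPKM, with quartiles of 9.78 and 46.8, against 24.9 RPKM with quartiles of 8.96 and 65.1 in the 13966 shorter-intron genes that passed. Levels over 100 RPKM were found in 7.67% of long-intron genes against 16% of the others, and levels under 1 RPKM in 2.29% against 1.95%. In the VaWRKY12 libraries the median of long-intron genes was 22.4, 22.2 and 20.5 RPKM, and in the EV libraries 20.9, 21.8 and 21.8 RPKM. It lay below the median of shorter-intron genes in all 6 libraries. Per gene rather than per length the order turned round: the median level was 5.16 log2 CPM in long-intron genes and 4.71 in the others, which have shorter coding sequences. The 11 genes that did not pass the filter averaged 6.17 to 25.2 reads a library.

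The highest levels per length were in genes of short coding sequence. GSVIVT01031145001, a gene of 2 exons and 213 coding bases on chromosome 14 (minus strand) from 1746537 to 1757369, stood at 2124.6, 2482.4 and 3301.0 RPKM in VaWRKY12 libraries and 2621.2, 2542.1 and 2730.2 RPKM in EV libraries. The EV values lay within the VaWRKY12 range, and the fitted change was -0.01 (SE 0.169, edgeR adjusted p = 0.971). GSVIVT01025145001 on chromosome 6, with 171 coding bases, averaged 1585.3 ± 138.2 RPKM in VaWRKY12 and 1416.0 ± 73.3 RPKM in EV (SD, n = 3 each), and did not pass the test (edgeR adjusted p = 0.438). GSVIVT01016537001 on chromosome 13, again with 213 coding bases, averaged 1093.7 ± 64.5 RPKM in VaWRKY12 and 844.3 ± 54.5 RPKM in EV (SD, n = 3 each). Its VaWRKY12 libraries all lay above its EV libraries, and it rose by 0.35 on the log2 scale (SE 0.0855, edgeR adjusted p = 0.0346). It was called without VaWRKY12 replicate 3 and in no other fit that left out a library, where its adjusted p reached at most 0.112. GSVIVT01020722001 on chromosome 12 averaged 772.1 ± 87.9 RPKM in VaWRKY12 and 846.8 ± 46.9 RPKM in EV (SD, n = 3 each, edgeR adjusted p = 0.463). The fifth of these genes, GSVIVT01037015001, is among the largest falls.

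Between genotypes most long-intron genes changed little. Of the 1004 tested, 37 were higher and 40 lower in VaWRKY12 callus than in EV callus (edgeR quasi-likelihood test, Benjamini-Hochberg adjusted p under 0.05), which is 3.69% and 3.98%. Over all 16317 tested genes 5.76% were higher and 6.16% lower, or 11.9% in either direction, against 7.67% of long-intron genes. All 77 had groups that did not overlap. Among long-intron genes 27.6% had groups that did not overlap, against 32.1% of all tested genes. Called genes with a log2 change of 1 or more in size made up 2.79% of long-intron genes, 15 higher and 13 lower, against 5.39% of all tested genes. The median log2 fold change was -0.01 in long-intron genes and 0.01 in all tested genes, values that the scaling holds near 0. With libraries scaled by their totals alone it was 0.0138 in long-intron genes, with 41 higher and 31 lower. In bulk callus fewer cells of a kind and less RNA per cell cannot be told apart. In the authors' deposited table, at a false discovery rate under 0.05, 39 of the 1015 were higher and 39 lower, against 11.6% of all genes in either direction. Of these, 36 and 39 were called the same way here.

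**Figure D2:**
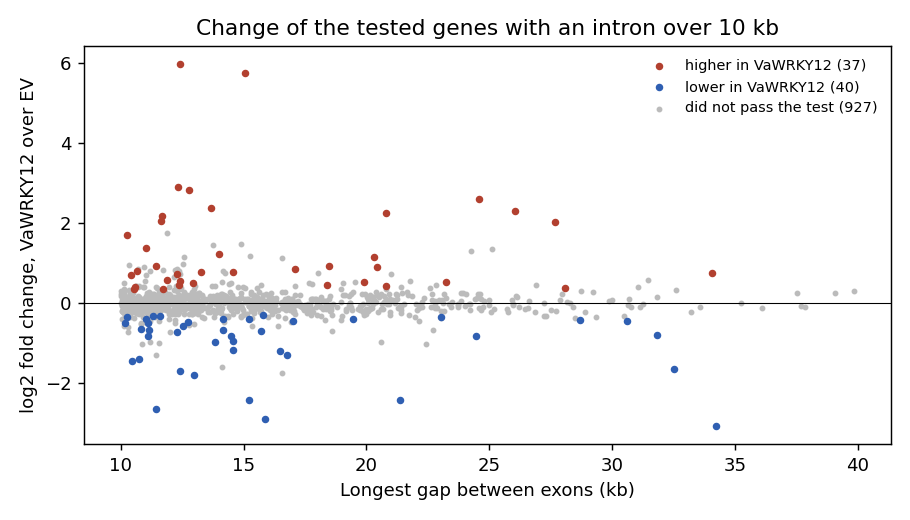
Log2 fold change of VaWRKY12 over EV against the longest gap between exons, in kb, for the 1004 tested long-intron genes, each a point coloured by the edgeR call. Most points lie close to 0 at every intron length, with 37 called higher and 40 called lower on either side, and the 2 points highest on the axis rest on at most 1.05 reads in each EV library.

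Level was then matched, since it sets how well a change can be seen. All tested genes were put in 10 classes of mean log2 CPM, and shorter-intron genes were weighted so that their classes held the shares of the long-intron genes. Matched in this way, 5.93% of shorter-intron genes were higher and 6.45% lower, against 3.69% and 3.98% of long-intron genes. The median size of the change without its sign was 0.134 on the log2 scale in long-intron genes, against 0.183 at matched level and 0.193 in all tested genes. A change of less than 0.25 in either direction was found in 73.6% of long-intron genes, against 61.5% at matched level. The called share was lower in long-intron genes in 8 of 10 classes, with the exceptions of classes 1 and 2, the lowest, where 17.5% and 13.2% were called against 14.1% and 12.9%. In class 7 it was 3.33% against 13.4%, and in class 10, the highest, 6.38% against 13.3%. These are descriptions across genes, which are not independent replicates, and no test of the difference was made.

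The counts fell by over 1.5 times when any library but VaWRKY12 replicate 3 was left out, while the called share stayed below that at matched level in all 6 fits. Without VaWRKY12 replicate 1, 20 long-intron genes were higher and 21 lower (4.08% in either direction, against 8.44% at matched level), and without VaWRKY12 replicate 2 there were 19 and 18 (3.66% against 7.71%). Without VaWRKY12 replicate 3 the counts were close to those from all libraries, at 32 and 37 (6.8% against 12.6%). Without EV replicate 1 there were 15 and 20 (3.47% against 6.57%), without EV replicate 2 there were 18 and 13 (3.08% against 6.27%), and without EV replicate 3 there were 22 and 20 (4.15% against 7.85%).

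Replicate libraries also lay closer together for long-intron genes. The within-group SD of log2 CPM, pooled over both groups, had a median of 0.135 in long-intron genes, against 0.165 in shorter-intron genes at matched level and 0.179 in all tested genes. It was lower in long-intron genes in 9 of 10 level classes, all but class 2 (0.342 against 0.319). In class 9 it was 0.0922 against 0.119, and in class 1, where counting error is largest, 0.445 against 0.447. Among VaWRKY12 libraries the median SD was 0.135, against 0.164 at matched level, and among EV libraries 0.119, against 0.134. VaWRKY12 replicate 3 was the library farthest from the other two of its group for 52% of long-intron genes, against 54.8% at matched level. Without that library the pooled median was 0.118 in long-intron genes and 0.135 at matched level, a difference of -0.0164 against -0.0295 with all 6.

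**Figure D3:**
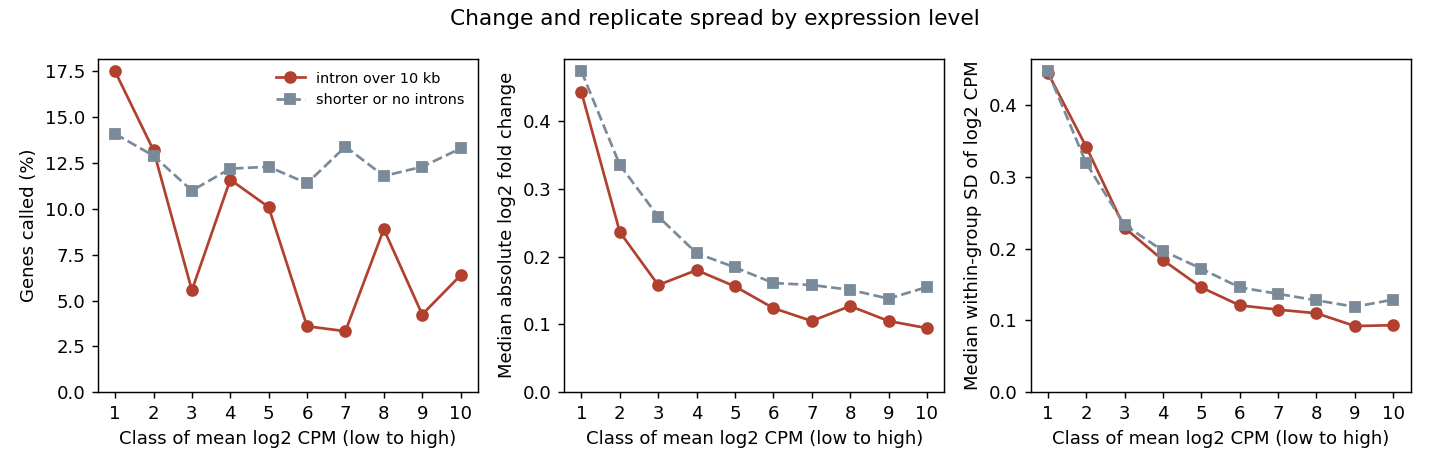
Share of genes called (%), median absolute log2 fold change and median within-group SD of log2 CPM, in 10 classes of mean log2 CPM from low to high, for genes with an intron over 10 kb (circles) and genes with shorter or no introns (squares). The circles lie below the squares in 8, 10 and 9 of the 10 classes.

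The difference was not particular to introns over 10 kb. Among shorter-intron genes the called share was 17.7% where the longest intron was up to 1 kb, 11.3% from 1 to 2 kb, 8.33% from 2 to 5 kb and 7.73% from 5 to 10 kb. Long-intron genes continued at 7.59% from 10 to 15 kb, 6.09% from 15 to 20 kb and 8.28% from 20 to 30 kb. The median within-group SD followed the same order, at 0.243, 0.163, 0.147 and 0.137 in those shorter classes and 0.137, 0.128 and 0.14 in the longer ones. These shares and SDs were not matched on level. The median level of the shorter classes was 4.09, 5.07, 5.07 and 5.21 log2 CPM in the same order. Genes with no intron had a called share of 11.2% and a median SD of 0.3, at a lower median level of 8.13 RPKM. Set beside only the 5122 genes with a longest intron of 2 to 10 kb, 7.67% of long-intron genes were called against 8.11% at matched level, and the median SD was 0.135 against 0.144. Across the 1004 long-intron genes the length of the intron had a Spearman's rho of -0.02 with the SD and 0.05 with the size of the change. Across all 14570 tested genes with an intron it was -0.32 and -0.23. These coefficients describe genes measured in the same 6 libraries and are not corrected for level.

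**Figure D4:**
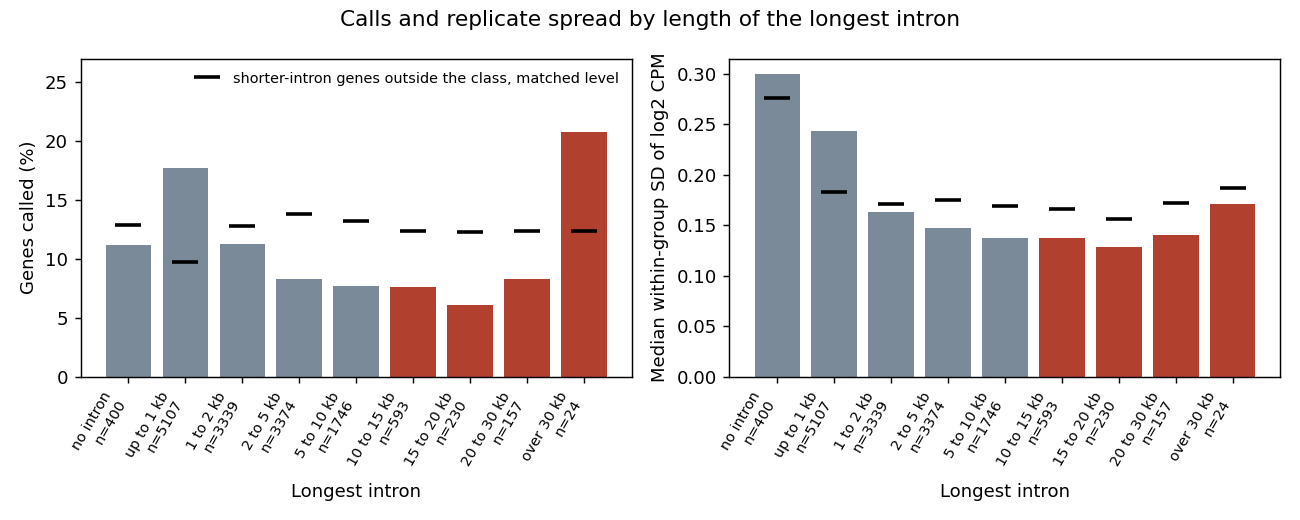
Share of genes called (%) and median within-group SD of log2 CPM by length of the longest intron, with the number of genes tested under each bar. Grey bars are shorter-intron genes, red bars long-intron genes, and black marks give shorter-intron genes outside the class at matched level. The called share falls to 7.73% at 5 to 10 kb and stays near that up to 30 kb, and the bar over 30 kb stands for 24 genes.

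Above 30 kb, 5 of 24 tested genes were called, 1 higher and 4 lower. This is 20.8%, against 12.4% at matched level, and it was the one length class of long-intron genes above the matched share. They are named after their values were seen. GSVIVT01018446001 (34232 bases) and GSVIVT01029688001 (32504 bases) are among the largest falls. GSVIVT01030734001, on chromosome 14 (minus strand) from 14715234 to 14767310, averaged 12.1 ± 1.69 CPM in VaWRKY12 and 20.8 ± 1.18 CPM in EV (SD, n = 3 each, log2 fold change -0.79, SE 0.142, edgeR adjusted p = 0.0113). GSVIVT01001043001, on the plus strand of chromosome 11, with 22 exons from 6787293 to 6909400, had 60.7, 60.2 and 62.9 CPM in VaWRKY12 and 81.1, 88.6 and 79.8 CPM in EV (log2 fold change -0.44, SE 0.0821, edgeR adjusted p = 0.0127). The risen gene, GSVIVT01000669001 on chromosome 13, had 19.0, 24.4 and 18.9 CPM in VaWRKY12 and 10.4, 15.8 and 10.9 CPM in EV (log2 fold change 0.74, SE 0.197, edgeR adjusted p = 0.0462). None of the 5 had overlapping groups. The number called was 3 without VaWRKY12 replicate 1, 2 without VaWRKY12 replicate 2 and 3 without EV replicate 1. No gene above 30 kb was called higher in those fits or without VaWRKY12 replicate 3, which left 4 lower.

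By number of exons the called share followed no single order. It was 3.57% in the 84 long-intron genes of 2 to 3 exons, 10.6% in the 245 of 4 to 7 exons, 9.03% in the 277 of 8 to 12 exons and 5.78% in the 398 with more. Shorter-intron genes of the same exon numbers at matched level had 12.6%, 12.8%, 10.8% and 13.4%. Genes with 1, 2, and 3 or more introns over 10 kb were called in 7.68%, 7.43% and 8%. Where the long intron was internal 6.95% of 691 genes were called, where it was the first 8.42% of 202, and where it was the last of 2 or more 10.8% of 111. The called share was lower where the long intron divided the coding sequence more evenly. Where less than 5% of the coding sequence lay on its smaller side, 11.4% of 88 genes were called, 4 higher and 6 lower, against 12.3% at matched level. With 5% to 20% on the smaller side 9.16% of 273 genes were called, and with 20% to 50% 6.53% of 643, against 12.4% at matched level for each. The median level of these classes was 11.6, 20.7 and 22.9 RPKM. The classes were not matched to each other on level, and the difference between them was not tested.

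The largest changes were ranked among called long-intron genes without overlap whose higher group averaged 50 reads or more. The top rise was in GSVIVT01013917001, a gene of 3 exons on chromosome 16 (plus strand) from 6726119 to 6741072. It had 10.7, 6.25 and 14.2 CPM in VaWRKY12 libraries and 2.47, 0.942 and 2.63 CPM in EV libraries. VaWRKY12 replicate 2 and EV replicate 2 were the lowest of their groups, and the log2 fold change was 2.38 (SE 0.417, edgeR adjusted p = 0.0102). GSVIVT01029225001, a gene of 15 exons on chromosome 11 (plus strand) from 18325314 to 18351149, had 38.2, 40.3 and 35.7 CPM in VaWRKY12 and 10.8, 4.43 and 8.92 CPM in EV. The VaWRKY12 libraries lay close together and far above EV (log2 fold change 2.25, SE 0.266, edgeR adjusted p = 0.00292). Its long intron, from 18325409 to 18346221, follows the first coding exon, of 95 bases. GSVIVT01026068001, 6 exons on chromosome 18, averaged 7.42 ± 1.58 CPM in VaWRKY12 and 1.66 ± 0.554 CPM in EV (SD, n = 3 each, log2 fold change 2.17, edgeR adjusted p = 0.0045). GSVIVT01034276001, 11 exons on chromosome 9, averaged 7.23 ± 2.99 CPM in VaWRKY12 and 1.78 ± 0.405 CPM in EV (SD, n = 3 each, log2 fold change 2.04, edgeR adjusted p = 0.0112).

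The other two of the 6 largest rises were at higher levels. GSVIVT01035212001, a gene of 11 exons on chromosome 4 (plus strand) from 10609072 to 10627881, had 196.1, 153.7 and 88.5 CPM in VaWRKY12 libraries and 35.4, 82.0 and 50.2 CPM in EV libraries. VaWRKY12 replicate 3 and EV replicate 2 almost met (log2 fold change 1.39, SE 0.348, edgeR adjusted p = 0.0385). The gene was not called without VaWRKY12 replicate 1 or 2 or EV replicate 1 or 3 (adjusted p up to 0.123). GSVIVT01003080001, 9 exons on chromosome 12, had 33.4, 41.1 and 36.2 CPM in VaWRKY12 and 12.3, 21.3 and 13.7 CPM in EV. It was called in every fit that left out a library (log2 fold change 1.22, SE 0.203, edgeR adjusted p = 0.00826).

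The largest fall by the same limits was in GSVIVT01018446001, a gene of 7 exons on chromosome 16 (minus strand) from 14995924 to 15032836, with a gap of 34232 bases after its first coding exon. It had 2.59, 2.54 and 0.224 CPM in VaWRKY12 libraries and 9.67, 22.6 and 15.1 CPM in EV libraries. VaWRKY12 replicate 3 held only 2 reads, and the gene fell by 3.07 on the log2 scale (SE 0.55, edgeR adjusted p = 0.011). GSVIVT01037015001, a gene of 4 exons on chromosome 3 (minus strand) from 8895286 to 8912074, was the most abundant long-intron gene to fall. It had 193.0, 204.1 and 91.1 CPM in VaWRKY12 and 1597.6, 1078.5 and 962.9 CPM in EV. All EV libraries lay far above all VaWRKY12 libraries, and the log2 fold change was -2.90 (SE 0.325, edgeR adjusted p = 0.00248). Per coding length it averaged 205.1 ± 81.7 RPKM in VaWRKY12 and 1495.0 ± 406.2 RPKM in EV (SD, n = 3 each). Its reads hold fractions, so part of them may be shared with another gene model. The same holds for the rises GSVIVT01013917001, GSVIVT01034276001, GSVIVT01035212001 and GSVIVT01003080001 and for the fall GSVIVT01027390001. GSVIVT01016197001, 4 exons on chromosome 13, had 1.49, 1.38 and 0.894 CPM in VaWRKY12 and 7.30, 7.54 and 5.72 CPM in EV (log2 fold change -2.41, SE 0.269, edgeR adjusted p = 0.00248). In this gene 95.8% of the coding sequence precedes the long intron.

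The other 3 falls kept their direction in every fit that left out a library, and their calls were lost in some. GSVIVT01027390001, 10 exons on chromosome 13, averaged 4.61 ± 1.08 CPM in VaWRKY12 and 14.5 ± 8.57 CPM in EV (SD, n = 3 each, log2 fold change -1.68, edgeR adjusted p = 0.0385). It was called without EV replicate 1, and leaving out any other library ended the call (adjusted p up to 0.111), with log2 fold changes of -2.0 to -1.09 over the 6 fits. GSVIVT01029688001, 6 exons on chromosome 12 with 97.4% of its coding sequence before the long intron, averaged 1.60 ± 0.471 CPM in VaWRKY12 and 5.14 ± 1.94 CPM in EV (SD, n = 3 each, log2 fold change -1.65, edgeR adjusted p = 0.027). Leaving out VaWRKY12 replicate 1 or 2 or EV replicate 1 or 3 ended the call (adjusted p up to 0.0942), with log2 fold changes of -1.93 to -1.39 over the 6 fits. GSVIVT01010600001, 14 exons on chromosome 16, averaged 7.56 ± 2.91 CPM in VaWRKY12 and 20.5 ± 5.94 CPM in EV (SD, n = 3 each, log2 fold change -1.44, edgeR adjusted p = 0.021), and was not called without VaWRKY12 replicate 1 or EV replicate 2 or 3 (adjusted p up to 0.0742), with log2 fold changes of -1.7 to -1.2 over the 6 fits.

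**Figure D5:**
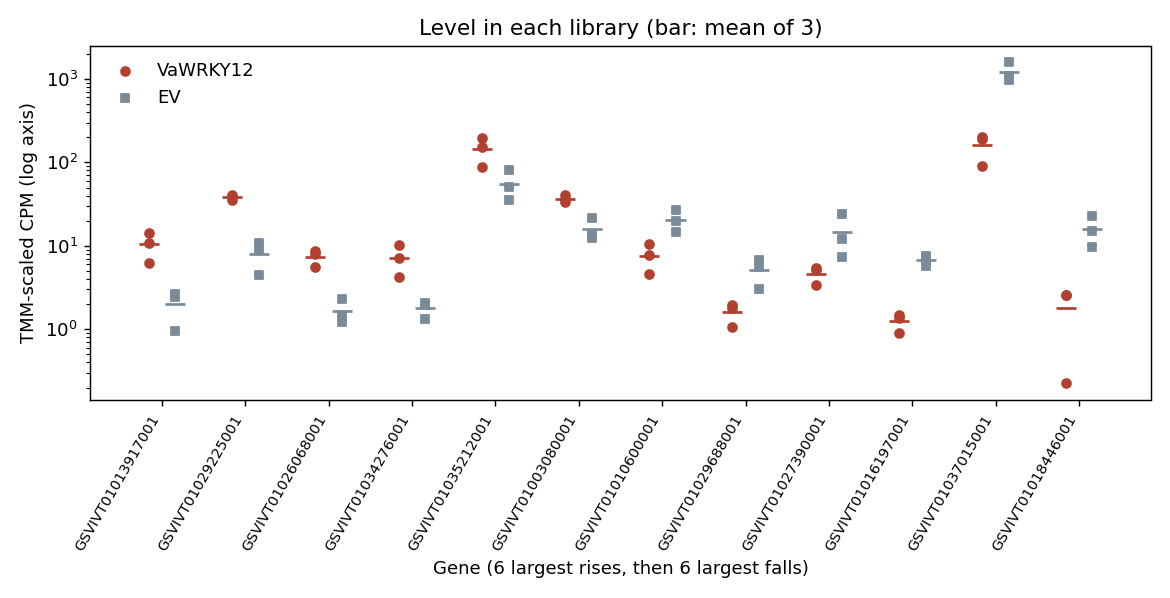
TMM-scaled CPM on a log axis in each of 3 VaWRKY12 libraries (circles) and 3 EV libraries (squares), with the mean of each group as a bar, for the 6 largest rises and the 6 largest falls among called long-intron genes whose higher group averaged 50 reads or more. The groups do not overlap in any of the 12 genes, which the selection required. Among the falls the group means lie farthest apart on the log axis for GSVIVT01018446001 and GSVIVT01037015001.

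Among long-intron genes that averaged 50 reads or more, replicates spread most in GSVIVT01016264001, GSVIVT01018446001 and GSVIVT01038120001, with a pooled within-group SD of log2 CPM of 1.44, 1.20 and 1.0. GSVIVT01016264001, 21 exons on chromosome 13, had 3.24, 11.7 and 1.01 CPM in VaWRKY12 libraries and 1.78, 9.70 and 5.03 CPM in EV libraries. Replicate 2 was the highest of both groups, and the groups overlapped throughout (edgeR adjusted p = 0.965). GSVIVT01038120001, 3 exons on chromosome 5, stood at 15.9, 7.38 and 21.9 RPKM in VaWRKY12 and 17.5, 3.57 and 11.7 RPKM in EV, with replicate 2 the lowest of both groups (edgeR adjusted p = 0.664).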

How the data were processed

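The submitters' processing notes list Trimmomatic, HISAT2 2.0.5 and edgeR but give no step for each, and no source used here names the counter, genome build or annotation. Per the file headers, the authors deposited reads per gene, taken here as an expected count because some are fractions of a read, and RPKM. It also gives the authors' log2 fold change and mean log2 CPM, their F score, p-value and false discovery rate, and exon positions. RPKM was used for levels.

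Reads were rounded and tested with edgeR 4.0.16 (R 4.3.3): TMM, filterByExpr (minimum count 10, 16317 genes kept), two-sided quasi-likelihood F test of VaWRKY12 over EV, Benjamini-Hochberg over all genes. SE came from the F statistic. Log2 CPM used a prior count of 2. In each library 3 reads stand for 0.2 to 0.341 CPM. The test was checked on simulated data.

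Long-intron genes, gene lists, classes and alternatives were chosen with earlier results of these data known. Named genes were the 5 longest introns, 6 largest rises and 6 falls, 5 highest RPKM, 3 largest SD, 3 on each side of the threshold and 2 with most long introns; none enclosed a listed gene, and the symbol lists for intron processing, cold response and WRKY genes matched 0 genes for lack of names. DESeq2 1.42.0 and limma-voom (limma 3.58.1) were alternatives.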

Additional observations from a re-analysis of the deposited data

How the results depend on the processing

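In each setting that recomputed them, the called share, the median size of the change and the median SD of long-intron genes lay below those of shorter-intron genes at matched level. Leaving out 1 library at a time gave 15 to 32 higher and 13 to 37 lower long-intron genes, against 2.95% to 6.13% and 3.29% to 6.43% at matched level. It gave differences (long-intron minus matched) of -0.0288 to 0.0045 in median log2 fold change, -0.0582 to -0.0408 in its size and -0.0323 to -0.0164 in median SD, and a level difference of 0.438 to 0.483 log2 CPM. Requiring a log2 fold change of at least 1 left 15 higher and 13 lower (2.49% and 2.3% at matched level), fewer by construction. A threshold of 20000 bases left 181 genes, with 10 higher and 8 lower (5.52% and 4.42%, against 6.08% and 6.3% at matched level) and a difference in size of change of -0.0312. Genes of whole reads alone gave 19 and 17 of 518 (6.95% against 12.6%). Matching on RPKM widened the differences in size of change and SD to -0.0647 and -0.0467. Matching on level to genes with a longest intron of 2 to 10 kb (a choice made after the data had been seen) gave 3.73% higher and smaller differences of -0.0178 and -0.00843. This SD difference was within the error of 0.0113 that leaving out libraries gave the main SD difference. The difference in size was just beyond its error of 0.0159. The level difference was 0.45 in log2 CPM, 0.396 against genes with an intron and -0.178 in log2 RPKM. By DESeq2 44 were higher and 48 lower (9.16% called against 15.2% at matched level), by limma-voom 34 and 38 (7.17% against 11.9%), and scaled by library totals 41 and 31 (7.17% against 12.1%). With the replicate number as a block, 44 were higher and 38 lower (8.17% against 14.6%). Deviations of same-numbered libraries correlated at -0.063, 0.325 and 0.175 for replicates 1, 2 and 3. Only for replicate 2 was the same-numbered library the best match from both groups. The libraries were therefore not treated as pairs. Of the 14 named genes called, 8 were called in each alternative run on them. GSVIVT01016537001 was also lost under the block. Of 14 not called, GSVIVT01033025001 was called without VaWRKY12 replicate 3. Depth limits the lowest level classes, where the SD of both kinds of gene was largest.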

Other observations

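Long-intron genes often lay next to each other in the order of the listed genes. Of the 1015, 257 (25.3%) had another as a direct neighbour in that order. Of shorter-intron genes, 11.6% had a long-intron gene as a neighbour. Genes that are not listed may lie between such neighbours. The longest run was 5 genes on chromosome 5, from GSVIVT01020912001 at 17290606 to GSVIVT01020902001 ending at 17558726, with longest gaps of 14020 to 21425 bases. By chromosome their share ran from 4.6% of genes on chromosome 19 to 8.97% on chromosome 13.

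Of the 141 neighbouring pairs of long-intron genes, 1 had both genes called, and it was noticed after the values were seen. GSVIVT01020559001 (4363640 to 4390088) and GSVIVT01020557001 (4390938 to 4404976) lie on the minus strand of chromosome 12, with 5 exons each. GSVIVT01020559001 held 38, 48 and 34 reads in VaWRKY12 libraries and 4, 9 and 5 in EV libraries (log2 fold change 2.59, SE 0.423, edgeR adjusted p = 0.00763). GSVIVT01020557001 held 52, 37 and 21 reads in VaWRKY12 and 3, 5 and 5 in EV (log2 fold change 2.83, SE 0.381, edgeR adjusted p = 0.00411). Whether they are parts of 1 gene was not tested.

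Called long-intron genes with few reads, also picked after seeing their values, included GSVIVT01036017001 on chromosome 4, with 58.33, 57.22 and 27.8 reads in VaWRKY12 and 1.05, 0 and 1 in EV. GSVIVT01032007001 on chromosome 13 had 18, 24 and 104.67 reads in VaWRKY12 and 0, 1 and 1 in EV, so that most of its VaWRKY12 reads came from replicate 3. Both hold fractions of reads.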
